A study of Mus musculus with 5 samples.

Results

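Cycling lymph node T cells were taken from 1 pooled droplet library of T cells as the barcodes with at least 3 of the 5 cell cycle transcripts Mki67, Top2a, Birc5, Nusap1 and Cenpf and no UMI (unique molecular identifier, 1 counted RNA molecule) of the B cell gene Cd79a. Before that step a barcode needed at least 200 genes, at most 10% mitochondrial UMIs, and a top hashtag antibody with at least 10 UMIs and at least 3 times the second. Of 13016 lymph node barcodes, 10192 passed these limits and 9120 of them held no Cd79a UMI. The rule kept 180 cycling cells, 1.97% of the 9120 (exact 95% interval 1.70% to 2.28%, Clopper-Pearson). The other 8940 cells are called the rest. The 3 gene matrices of the series held 34095 barcodes in all.

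The library was made from mediastinal lymph nodes, which drain the heart, of C57BL/6 mice aged 2, 6, 12 and 18 months, all without a transgene or drug named in the labels. CD44-high CD4+ and CD8+ T cells, that is cells sorted as antigen-experienced, were stained with 8 hashtag antibodies, pooled at unequal ratios and loaded for 12000 cells. A matched library gave the T cell receptor contigs of the same barcodes. The age of each hashtag was not used here, so the hashtags below are 8 unassigned samples and are not read as ages or as replicates. The cells were chosen from the same counts and the hashtags are unassigned samples of 1 library, so no test was made between cycling cells and the rest, and every interval covers counting error only. Heart cells of the same series were not used.

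A dividing T cell first commits to the cycle through G1 cyclins and E2F transcription factors, then copies its DNA in S phase with new histones to package it, and then condenses, aligns and separates its chromosomes in mitosis. Mki67 (Ki-67, a coat of mitotic chromosomes), Top2a (topoisomerase II alpha, which untangles DNA), Birc5 (survivin, of the chromosomal passenger complex), Nusap1 (a spindle protein) and Cenpf (a centromere protein) are made mostly from S phase to mitosis. Many genes of that late wave carry the hexamer TTTGAA in their promoter, the core of the cell cycle genes homology region, through which the DREAM complex holds them silent in resting cells. In lymph nodes most T cells rest, and clones that met antigen divide.

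The letters of these start sites are shown for Mki67 and Top2a, the 2 markers with 2 copies of that hexamer. Each window runs from 250 bases before to 50 bases after the RefSeq gene start (GRCm38.p6), is written 5′ to 3′ on the gene's strand, and has TTTGAA or its reverse complement TTCAAA in capitals. Mki67 lies at chr7:135716330-135716629 and Top2a at chr11:99024140-99024439, both on the minus strand.
Mki67 promoter: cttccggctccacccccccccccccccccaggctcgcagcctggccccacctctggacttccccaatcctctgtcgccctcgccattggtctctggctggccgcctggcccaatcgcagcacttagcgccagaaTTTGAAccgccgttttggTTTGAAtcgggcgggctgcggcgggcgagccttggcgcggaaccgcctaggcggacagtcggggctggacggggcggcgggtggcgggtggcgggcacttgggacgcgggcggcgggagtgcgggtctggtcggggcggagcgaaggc
Top2a promoter: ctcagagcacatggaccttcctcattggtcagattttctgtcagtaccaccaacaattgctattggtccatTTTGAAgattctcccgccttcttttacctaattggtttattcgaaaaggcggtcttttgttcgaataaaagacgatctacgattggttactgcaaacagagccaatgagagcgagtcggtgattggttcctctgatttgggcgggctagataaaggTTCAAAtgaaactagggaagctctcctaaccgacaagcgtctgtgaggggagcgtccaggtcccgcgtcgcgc
Cenpf holds the hexamer once in its window, and Nusap1 and Birc5 do not hold it in theirs. Thus 3 of the 5 markers had it on either strand, beside 20.2% of all 27025 windows of the same length and 15% of the 9712 windows of genes measured here. A match is letters only, and promoter windows covered 79.4% of the mitosis list and 76.6% of the S phase list used below. The same comparison over those lists was therefore void. Windows covered 77.2% of the genes measured here, so the 15% has the same limit.

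The 5 markers chose the cells, so their values describe the choice. Mki67 averaged 568 CPM (UMIs of a gene, summed over a set of cells and scaled to a total of 1000000 UMIs) in cycling cells and 7.43 CPM in the rest, with a UMI in 91.1% and 2.00% of cells. Across the 8 hashtags its lowest, median and highest level was 451, 547 and 744 CPM in cycling cells, against 5.24, 6.86 and 10.2 CPM in the rest. Top2a stood at 662, 839 and 943 CPM in cycling cells, against 9.83, 13.1 and 14.9 CPM in the rest. No hashtag was without the pattern, and the ranges did not overlap for any of the 5 markers. Birc5 was found in 91.7% of cycling cells and 0.772% of the rest, Nusap1 in 72.8% and 0.347%, and Cenpf in 67.8% and 0.347%. The cut at 3 markers fell inside a gradient. The 54 cells with exactly 3 markers had 162 CPM of the cyclin gene Ccna2 and 708 CPM of the replication clamp factor gene Pclaf, while the 78 cells with 2 markers, just outside, had 61.8 CPM of Ccna2 and 245 CPM of Pclaf. Their median depth was 3989.5 and 3924.5 UMIs.

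Cycling cells were deeper than the rest, with a median of 7969 UMIs and 2609.5 genes, against 2673 UMIs and 1263.5 genes in the rest. In all they held 2152004 UMIs, against 31884635 in the rest. Levels in CPM are shares of these UMIs, so a gene lower in CPM need not have fewer UMIs per cycling cell. The 77 cells with all 5 markers had a median of 16723 UMIs. The authors' deposited processing text left out lymph node cells above 12500 UMIs, a limit not used here, and 68 cycling cells (37.8%) and 111 of the rest (1.24%) lay above it. When each cell was first thinned to 2000 UMIs and the rule then applied, 79 of 5518 cells were cycling (1.43%). Receptor contigs, which the rule did not use, were found for the beta chain (TRB) in 86.1% of cycling cells and 73.0% of the rest. A second productive TRB was seen in 11.0% of TRB-bearing cycling cells and 7.90% of such cells in the rest. No cycling barcode was shared with a heart library, and 7 barcodes of the whole lymph node matrix were.

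Some barcodes carried nearly the same RNA. Between 2 cycling barcodes, the squared difference of each gene's UMIs over its counting noise was averaged over genes with at least 10 UMIs in the pair, so that 1 means no more than counting noise. Of 227 pairs with the same TRB junction sequence (CDR3), 88 (38.8%) lay within noise, and of 11707 pairs with different sequences, 86 (0.735%) did. Among pairs with more than 150 such genes, 39 of 145 (26.9%) and 10 of 10299 (0.0971%) lay within noise. Among pairs with 30 to 150 such genes, 49 of 82 (59.8%) and 76 of 1408 (5.40%) did. Barcodes of the same CDR3 within noise were joined into 1 profile. The 180 cycling barcodes then gave 136 profiles, 19 of which held 63 barcodes, up to 7 each. Of the 88 pairs, 74 shared a hashtag. Such groups were also present in the whole set, where 9120 barcodes gave 8299 profiles, so the cycling share, the main class shares and the receptor results are given both ways, and other counts of cells are by barcode unless profiles are named. Cycling profiles made up 1.64% (1.38% to 1.94%) of all profiles. What joins these barcodes was not tested.

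**Figure D1:**
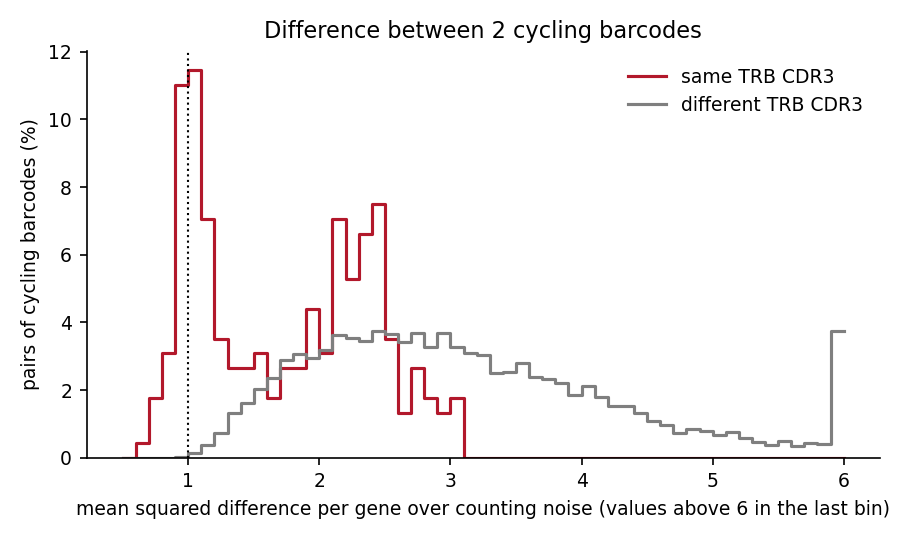
Pairs of cycling barcodes with the same TRB CDR3 (red) and with different TRB CDR3 (grey), as a percent of each kind of pair, by the mean squared difference per gene over counting noise (x axis, 1 is counting noise alone; values above 6 are in the last bin). Same-CDR3 pairs have a peak near 1, where 88 of 227 fall within noise, and a further group near 2, with a median of 2.23 for pairs outside noise; different-CDR3 pairs have a median of 2.92.

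Genes of cell division were higher in cycling cells almost without exception. Over 12580 genes with at least 20 UMIs, 1043 (8.29%) were at least 2-fold higher in CPM in cycling cells and 1967 (15.6%) at least 2-fold lower, and the median gene stood at -0.17 on the log2 scale. These shares are given as background and nothing is read from them, since the same cells were picked by 5 of these transcripts. Of 63 mitosis and G2 genes other than the 5 markers, 62 were at least 2-fold higher, with a median log2 ratio of 5.40. Genes named beyond the 6 most abundant of a list, here and below, were chosen after their values were seen. Pttg1 (securin, the guard of sister chromatid cohesion) was the exception at 66.0 CPM in cycling cells and 90.0 CPM in the rest, a log2 ratio of -0.45 (-0.70 to -0.20). The list held the kinase gene Cdk1 (221 CPM in cycling cells, 3.23 CPM in the rest), its partner cyclins Ccnb2 (316 and 4.39 CPM) and Ccna2 (347 and 1.88 CPM), and Ube2c, the ubiquitin-conjugating enzyme of the anaphase-promoting complex (667 and 5.24 CPM). The mitotic kinase genes Plk1 (183 and 1.63 CPM) and Aurkb (152 and 1.72 CPM) lay more than 6 log2 units apart between the cells. Tubulin gene Tubb5 had 2829 and 694 CPM, a smaller log2 ratio of 2.03.

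Chromatin-bending protein gene Hmgb2, the most abundant member of the mitosis list, ranged over hashtags from 2737 to 4543 CPM in cycling cells (median 3553), against 193 to 345 CPM in the rest (median 236). Its log2 ratio was 3.83 (3.79 to 3.88). Stmn1 (stathmin, a microtubule regulator) was present in 99.4% of cycling cells and 6.89% of the rest, with 1261 and 40.0 CPM. Every hashtag showed both differences. Kinetochore genes outside the lists, named by the size of their ratio, were Knl1 (139 and 1.32 CPM), Spc24 (187 and 3.70 CPM) and Ska1 (58.6 and 0.376 CPM). Esco2, the acetyltransferase that ties sister chromatids together, had 92.9 and 0.565 CPM, and Mxd3, a MYC-network factor seen in proliferating cells, 102 and 0.565 CPM.

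Replication and S phase genes were higher in 46 of 47 cases, with a median log2 ratio of 2.91. The clamp gene Pcna, the ring that holds polymerases on DNA, had 251 CPM in cycling cells and 49.6 CPM in the rest. Mcm6, a subunit of the replicative helicase, ranged from 281 to 451 CPM over cycling hashtags (median 336), against 89.2 to 108 CPM in the rest (median 98.4). Its ranges did not overlap, and its log2 ratio was 1.77 (1.65 to 1.88). Dut, which clears dUTP, had 506 and 70.2 CPM, and Dnmt1, which copies DNA methylation, 275 and 56.9 CPM. Pclaf, which binds the Pcna ring, had a lowest, median and highest level of 777, 851 and 1311 CPM in cycling hashtags, against 4.26, 8.02 and 14.9 CPM in the rest. Cdt1, which licenses origins in G1 and is removed in S phase, fell just short of 2-fold at 67.8 and 34.2 CPM (log2 ratio 0.99). Nucleotide and one-carbon synthesis followed with 19 of 37 genes higher and none lower, among them ribonucleotide reductase gene Rrm2 (587 and 7.78 CPM), thymidylate synthase gene Tyms (325 and 18.3 CPM) and thymidine kinase gene Tk1 (240 and 6.71 CPM).

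Replication-dependent histone genes, whose mRNAs mostly lack a poly(A) tail, were measured in 47 of 57 cases, and 45 were higher, with a median log2 ratio of 4.03. The linker histone gene Hist1h1b ranged from 394 to 1432 CPM over cycling hashtags (median 628), against 5.57 to 28.9 CPM in the rest (median 9.07). Hist1h1d ranged from 171 to 1429 CPM (median 341), against 13.2 to 29.4 CPM (median 18.3). Hashtag7 was highest of the cycling samples for Hist1h1d. Hist1h2ap had 748 and 9.63 CPM. Hist3h2a was the 1 member at least 2-fold lower, from 1 cycling cell with a UMI, 0.465 CPM in cycling cells and 1.54 CPM in the rest.

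**Figure D2:**
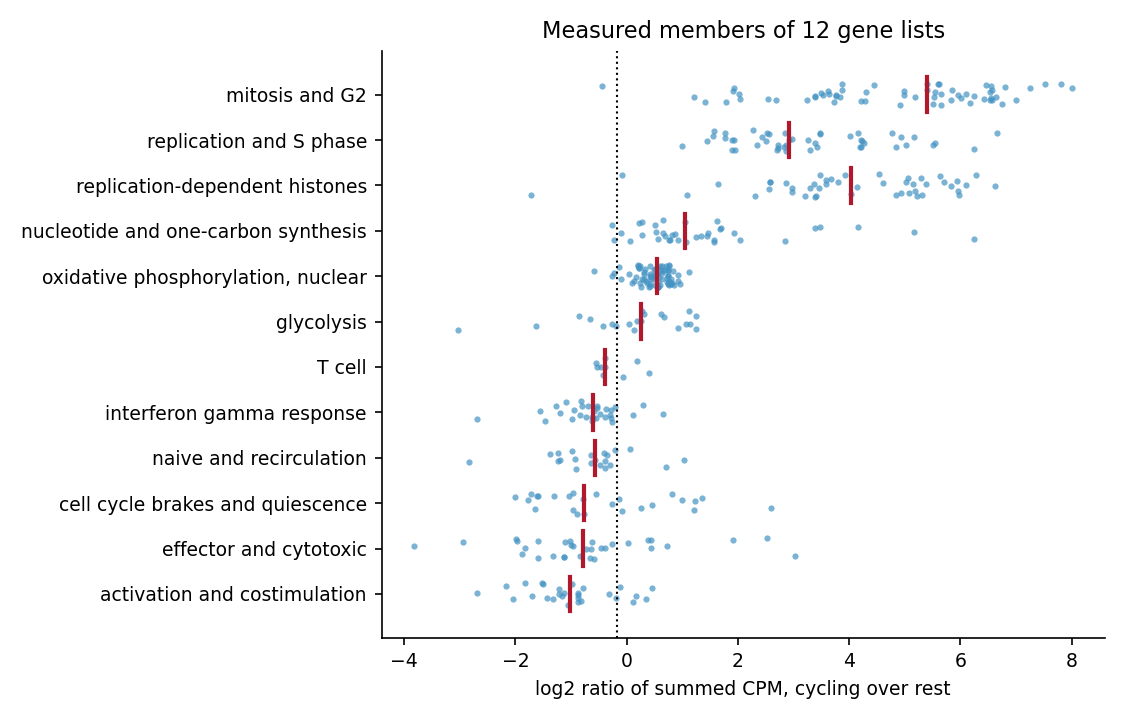
Log2 ratio of summed CPM, cycling over rest (x axis), for the measured members of 12 gene lists (rows); each point is a gene, the red line is the list's median and the dotted line the median of all 12580 genes, -0.17. The mitosis (5.40), histone (4.03) and S phase (2.91) medians lie far to the right, and the activation list has the lowest median, -1.02.

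The balance of S phase and mitosis genes varied among cycling cells. The S phase list made up a median of 0.716% of UMIs in cycling cells and 0.0821% in the rest, and the mitosis list, without the markers, 2.43% and 0.295%. Split at their medians, 52 cycling cells were high in S phase genes and low in mitosis genes, 52 the reverse, 38 high in both and 38 low in both. Cd4 cells (classes are defined below) had a median of 2.94% in mitosis genes, Cd8 cells 2.08% and Foxp3 cells 2.33%. For S phase genes the medians were 0.715% in Cd4 cells, 0.627% in Cd8 cells and 0.930% in Foxp3 cells. Histone transcripts took a median of 0.598% of UMIs in cycling cells and 0.0149% in the rest. The median was 1.26% in the cycling cells of Hashtag7, against 0.285% to 0.821% in those of the other 7 hashtags. The 45 cycling cells of Hashtag7 had a median of 4931 UMIs, against 7969 in all cycling cells. Of these 45, 15 were of clonotype1, described below. The part of depth and of that clone in the Hashtag7 value was not tested.

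**Figure D3:**
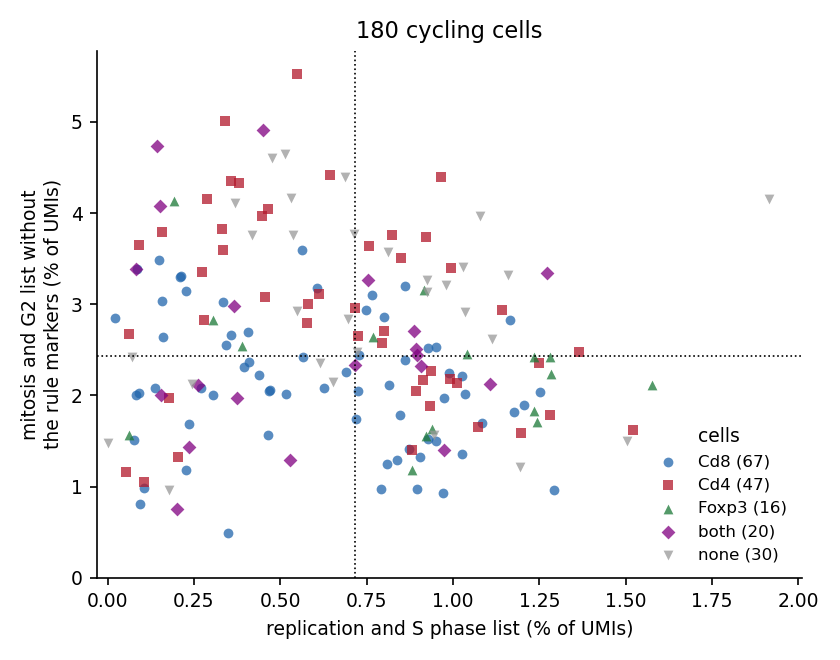
Each of the 180 cycling cells by the percent of its UMIs in the replication and S phase list (x axis) and in the mitosis and G2 list without the rule markers (y axis), coloured by Cd4, Cd8 and Foxp3 class; dotted lines are the medians, 0.716% and 2.43%. The quadrants hold 38, 52, 52 and 38 cells, and Cd4 cells reach the highest mitosis values.

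Transcripts of the factors that drive late cell cycle genes were higher too. Of 17 G1 cyclin and E2F genes, 9 were higher and 2 lower (median log2 ratio 1.15), beside 8.29% higher and 15.6% lower over all genes. Foxm1 (31.1 CPM in cycling cells, 0.345 CPM in the rest) and Mybl2 (45.5 and 0.910 CPM) encode 2 such activators. E2f7, an E2F that represses G1 targets during S phase, had 20.4 and 0.282 CPM. Tfdp1, the DNA-binding partner of E2F proteins, had 174 and 39.5 CPM. The early drivers stood differently. Ccnd2 (cyclin D2) was lower at 143 CPM in cycling cells and 334 CPM in the rest, and Myc, a transcription factor induced by antigen, at 35.8 and 89.9 CPM. Both were lower in 8 of 8 hashtags although their ranges overlapped, and 5 cells held 57.1% of the Myc UMIs of cycling cells. Ccnd3 (353 and 282 CPM) and Cdk4 (258 and 149 CPM) did not reach 2-fold.

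Of 25 genes in a list of cycle brakes and quiescence, 5 were higher and 8 lower (median log2 ratio -0.77). Over all genes 8.29% were higher and 15.6% lower. The 4 most abundant of the lower ones were Btg1, Txnip, Ypel3 and Btg2. Btg1, an antiproliferative factor of quiescent T cells, ranged from 188 to 342 CPM over cycling hashtags (median 209), against 668 to 966 CPM in the rest (median 768). Txnip, which limits glucose uptake, had 91.1 and 366 CPM (log2 ratio -2.01, -2.22 to -1.80), Ypel3 121 and 366 CPM, and Btg2 84.6 and 210 CPM. None of these 4 overlapped between the groups over hashtags. The share of all genes without overlap is not given, so a lack of overlap is nowhere read as particular to the genes named. Genes with small differences had none either. Examples are the glycolysis gene Gpi1 (median hashtag 471 CPM in cycling cells, 387 CPM in the rest) and the respiratory chain gene Cox4i1 (934 and 753 CPM). The higher ones were Cdk inhibitor genes and a pocket protein gene, Cdkn2c (98.0 and 16.2 CPM), Cdkn2d (163 and 70.1 CPM), Cdkn2a (11.6 and 4.52 CPM), Cdkn1c (2.32 and 1.16 CPM) and Rbl1 (44.1 and 18.7 CPM). Cdkn2c and Cdkn2d were higher in 8 of 8 hashtags, Rbl1 in 7, Cdkn2a in 4 and Cdkn1c in 2, and without Hashtag3 the log2 ratio of Cdkn1c was -0.091.

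Of 28 DNA damage and p53 genes, 7 were higher and 3 lower, with a median log2 ratio of -0.25. Over all genes 8.29% were higher and 15.6% lower. Brca1, which acts in repair by recombination (34.9 CPM in cycling cells, 1.47 CPM in the rest), and H2afx, the histone that marks breaks (761 and 61.8 CPM), were among the higher ones. Bbc3 (PUMA, a p53 target that kills cells) was lower at 5.58 and 42.0 CPM. Apoptosis regulators gave 2 higher and 4 lower of 19, near the shares over all genes, so nothing is read from these counts. Bcl2, the survival factor of resting T cells, was among the lower ones, with 36.3, 47.9 and 119 CPM as lowest, median and highest of cycling hashtags, against 140, 203 and 237 CPM in the rest.

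Energy genes differed less. Of 21 glycolysis genes, 5 were higher and 2 lower (median log2 ratio 0.26), beside 8.29% higher and 15.6% lower over all genes. The 5 were Gapdh (1732 CPM in cycling cells, 726 CPM in the rest), Ldha (1227 and 562 CPM), Pkm (980 and 465 CPM), Pgk1 (388 and 176 CPM) and Tpi1 (204 and 85.9 CPM), all enzymes of the main pathway and each higher in 8 of 8 hashtags. The 2 lower ones, Aldoc and Pfkfb3, were scarce in both, at 0.465 and 3.79 CPM and at 6.04 and 18.7 CPM. Nuclear oxidative phosphorylation genes had a median log2 ratio of 0.54 over 76 genes with 1 past 2-fold, Atp5g3 (1250 and 572 CPM). The 13 genes of the mitochondrial genome had a median of -0.61 with 1 past 2-fold, mt-Nd2 (463 and 934 CPM). The sums of the nuclear and the mitochondrial genes of the respiratory chain differed in direction, 29623 CPM in cycling cells and 21080 CPM in the rest for the nuclear genes, and 13744 and 20231 CPM for the mitochondrial ones.

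Of 21 naive and recirculation genes, 5 were lower and 1 higher (beside 15.6% of all genes lower and 8.29% higher), with a median log2 ratio of -0.57 and a summed level of 2739 CPM in cycling cells and 4343 CPM in the rest (log2 ratio -0.67). Il7r, the receptor for the survival cytokine IL-7, stood at 10.4, 57.0 and 119 CPM (lowest, median and highest hashtag) in cycling cells, against 271, 427 and 762 CPM in the rest, with no overlap and a log2 ratio of -2.84 (-3.09 to -2.60). Ltb (lymphotoxin beta) had 431 and 1018 CPM, also without overlap. Il4ra (19.98 and 52.0 CPM), Il6ra (25.6 and 60.2 CPM) and Ccr9 (6.04 and 13.8 CPM) were the other lower receptors. Dapl1 was the higher one at 204 and 100 CPM, in 6 of 8 hashtags, though its log2 ratio was -0.14 among cells of at most 12500 UMIs. Tcf7, the factor of self-renewing T cells, had 190 and 264 CPM and overlapping hashtags.

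The ratios of Klf2 and Nkg7 had different signs in different classes of cell. Klf2, which keeps T cells recirculating, had a log2 ratio of -0.30 over all cells, -1.38 among Cd8 cells, 0.54 among Cd4 cells and 0.88 among Foxp3 cells. The killer granule gene Nkg7 turned the same way, -0.58 over all, -0.97 among Cd8 cells, 0.60 among Cd4 cells and 1.42 among Foxp3 cells. Among cells of at most 12500 UMIs the ratios over all cells were 0.03 for Klf2 and 0.00 for Nkg7. Whether the ratios differ between classes was not tested, as there is 1 library.

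Genes of recent antigen signalling took a smaller share of UMIs in cycling cells. Of 28 activation and costimulation genes none was at least 2-fold higher and 14 were lower, a median log2 ratio of -1.02. Over all genes 8.29% were higher and 15.6% lower. Junb, an AP-1 factor induced within minutes of stimulation, had 84.0, 171 and 278 CPM as lowest, median and highest of cycling hashtags, against 301, 349 and 496 CPM in the rest. Jun had 13.9 and 57.6 CPM. Cd69, the early activation antigen that holds cells in lymph nodes, had 64.6 and 149 CPM, with overlapping hashtags. Cd44, the antigen used for the sort, had 46.5 and 85.2 CPM, lower in 8 of 8 hashtags and without overlap. A Cd44 UMI was nevertheless found in 35.6% of the deeper cycling cells and 22.4% of the rest.

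Of 32 effector and cytotoxic genes 14 were lower and 3 higher, with a median log2 ratio of -0.79. Over all genes 15.6% were lower and 8.29% higher. Their summed level was 5761 CPM in cycling cells and 9689 CPM in the rest, a log2 ratio of -0.75 that was -0.22 among cells of at most 12500 UMIs. The chemokine gene Ccl5 had the largest level in that list, 119, 907 and 4403 CPM (lowest, median, highest hashtag) in cycling cells, against 1400, 3335 and 12402 CPM in the rest, and was lower in 8 of 8 hashtags. Ccl4 had 6.97 and 98.2 CPM, the killer receptor gene Klrd1 45.1 and 136 CPM, and the protease gene Ctsw 178 and 380 CPM. Lgals1 (galectin-1, made by activated T cells) was higher, at 426, 1126 and 1859 CPM in cycling hashtags, against 214, 295 and 359 CPM in the rest. Granzyme genes differed from one another. Gzmb, the killing protease, was found in 15% of cycling cells and 1.31% of the rest and was higher in 6 of 8 hashtags, at 52.97 and 9.22 CPM. Gzma had 206 and 25.3 CPM, was higher in 3 of 8 hashtags, and 5 cells held 93.2% of its 443 UMIs in cycling cells. Gzmk had 332 and 245 CPM, a log2 ratio of 0.44 (0.33 to 0.55), which was -0.06 without clonotype1, described below, and -0.19 without Hashtag7.

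Subset, checkpoint and interferon lists had no member at least 2-fold higher, and their shares of lower genes stand beside 15.6% over all genes, to which those of the checkpoint and interferon gamma lists are near. Regulatory T genes gave 6 lower of 24, with Foxp3 itself at 34.4 CPM in cycling cells and 69.4 CPM in the rest, and Il2ra (CD25) at 19.5 and 43.5 CPM. Follicular helper genes gave 7 lower of 20, Sostdc1 (12.5 and 130 CPM, from 2.22% and 5.47% of cells) and Ascl2 (0.929 and 11.3 CPM) by the most. Checkpoint genes gave 2 lower of 13, Lag3 (55.8 and 130 CPM) and Cd101 (4.65 and 21.3 CPM), while Pdcd1 (PD-1) had 79.5 and 153 CPM. T helper genes gave 6 lower of 14. Of 31 interferon gamma response genes 6 were lower, among them the feedback inhibitor gene Socs1 (51.1 and 151 CPM) and the receptor gene Ifngr1 (95.3 and 229 CPM). H2-K1, the class I antigen presenter, had 2203 and 3642 CPM without overlap of hashtags. Of 36 type I interferon-stimulated genes 10 were lower, such as Slfn5 (7.90 and 53.2 CPM) and Irf7 (50.2 and 113 CPM).

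Outside the lists, the genes with the lowest ratios were named. The choice required the same direction in each of the 4 hashtags with at least 20 cycling cells, so agreement in those 4 was fixed by it. Neither that agreement nor a lack of overlap is read as particular to these genes. Tcp11l2 (6.97 CPM in cycling cells, 78.1 CPM in the rest), the histone demethylase gene Kdm5b (6.97 and 50.1 CPM), the Polycomb partner gene Phf1 (8.83 and 60.3 CPM), the PI3K inhibitor gene Pik3ip1 (11.2 and 56.1 CPM) and the transcription factor gene Zbtb20 (12.1 and 59.2 CPM) were lower in 8 of 8 hashtags without overlap. Apoe (7.43 and 72.9 CPM) and Tmem176b (14.4 and 137 CPM) are better known from myeloid cells. Among TRB-bearing cells the log2 ratio of Tmem176b was -1.55, against -3.25 in all cells, and that of Ifitm3, an antiviral membrane gene, 0.08, against -2.13.

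The name T cell held. Cd3e was found in 91.7% of cycling cells and 84.2% of the rest, at 950 and 1248 CPM, and 9 of 9 T cell genes stayed within 2-fold (median log2 ratio -0.39). Markers of other cells were summed over each list. The 6 myeloid genes had 65.3 to 674 CPM over cycling hashtags, against 705 to 1913 CPM in the rest, and Lyz2, their defining gene, had 2.79 and 259 CPM. The 5 dendritic genes summed to 142 CPM in cycling cells and 655 CPM in the rest. The B cell genes, without Cd79a UMIs by rule, summed to 849 and 2450 CPM. Most of it was Cd74 (603 and 2127 CPM) and then Ighm (214 and 292 CPM). That lower sum followed Cd74. Of 7 measured B cell genes only 1 was at least 2-fold lower, beside 15.6% of all genes. Their median log2 ratio was 0.14, against -0.17 over all genes. Among TRB-bearing cells the log2 ratio of Cd74 was -0.22 and that of H2-Aa -0.64, against -1.82 and -2.13 in all cells. Among cells of at most 12500 UMIs these 2 genes stood at 0.13 and 0.09. The gamma delta T genes summed to 1.86 and 35.6 CPM, with Trdc and Tcrg-C1 at 0 in cycling cells. The NK list (282 and 187 CPM) followed Gzma. Plasma, germinal centre, thymocyte, erythroid and stromal genes summed to under 100 CPM a list in either set. The part of other cells in the rest in any gene above was not tested, except where values for TRB-bearing cells are given.

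Cycling cells were found in each of the Cd8, Cd4 and Foxp3 classes. A Cd8 cell had a Cd8a or Cd8b1 UMI and no Cd4 or Foxp3 UMI, a Cd4 cell a Cd4 UMI and none of the others, and a Foxp3 cell a Foxp3 UMI and no Cd8 UMI. There were 67 Cd8 cells, 37.2% of cycling cells (30.1% to 44.7%), against 37.7% of the rest. Cd4 cells numbered 47, 26.1% (19.9% to 33.2%), against 18.2%, and Foxp3 cells 16, 8.89% (5.17% to 14.0%), against 9.53%. A further 20 held UMIs of both lineages (11.1%, against 5.50%) and 30 none (16.7%, against 29.0%). Thinned to 2000 UMIs, which left 154 cycling cells and 5364 of the rest, Cd4 cells were 16.2% of cycling cells and 16.6% of the rest, Cd8 cells 45.5% and 42.1%, and Foxp3 cells 6.49% and 8.50%. At that depth the share in the rest lay inside the interval of the cycling cells for each of these 3 classes. In profiles 35.3% of cycling cells were Cd8, 29.4% Cd4 and 10.3% Foxp3, against 36.7%, 18.9% and 10.0% of the rest.

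Background bounds these calls. In 749 B cells of the library, which should lack the genes, Cd4 UMIs were seen in 7.74% of cells, Cd8 in 16.0% and Foxp3 in 2.54%, at a median depth of 3621 UMIs. In cycling cells, at a median of 7969 UMIs, Cd4 was seen in 42.2%, Cd8 in 48.3% and Foxp3 in 12.8%. Read the other way, 2.80% of Cd4 cells, 1.95% of Cd8 cells and 1.84% of Foxp3 cells were cycling, and with the rule applied after thinning these shares were 1.53%, 1.46% and 0.215%. The Foxp3 share then rests on 1 cell. Over hashtags, Cd8 cells made up 10.0% (1 of 10, Hashtag4) to 60.0% (12 of 20, Hashtag1) of cycling cells, and Cd4 cells 5% (Hashtag1) to 40.0% (Hashtag4 and Hashtag7).

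Cycling Foxp3, Cd8 and Cd4 cells differed in subset genes other than those that define them. Among 5255 genes, 4.97% were at least 2-fold higher in cycling Foxp3 cells than in cycling Cd4 cells and 6.66% at least 2-fold lower. Il1r2, a decoy receptor for IL-1, had 76.5 CPM in Foxp3 cells and 1.64 CPM in Cd4 cells, the relaxin-3 gene Rln3 65.0 and 1.64 CPM, and Il2ra 53.5 and 3.28 CPM, from 5 of 16 and 2 of 47 cells. Ifit1 and Ifit3 were higher from 1 cell each. Gzmb had 3.82 and 59.0 CPM (1 and 11 cells), but 34 of its 36 UMIs in cycling Cd4 cells lay in clonotype1, described below, without which those cells had 3.84 CPM. Of the other lower genes, Cd40lg, the helper ligand for B cells, had 7.65 and 107 CPM, and Phf12 3.82 and 54.1 CPM. Igfbp4 was at 0 in Foxp3 cells and at 133 CPM in Cd4 cells, where 8 of 47 cells had it and 1 of them held 49.4% of its UMIs. The histone genes Hist1h3i and Hist1h3f were lower as well.

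Between cycling Cd8 and Cd4 cells, 4.53% of 6689 genes were at least 2-fold higher and 5.86% lower. Klrd1 had 95.3 CPM in Cd8 cells and 1.64 CPM in Cd4 cells, and Plac8 60.6 and 1.64 CPM. Cd40lg had 5.61 and 107 CPM, the linker histone gene H1f0 15.7 and 208 CPM, Tox2, a factor of helper cells, 6.73 and 75.4 CPM, Igfbp4 12.3 and 133 CPM, and Hist1h4k 13.5 and 143 CPM. Of these 2 classes, only Cd8 cells showed the class II genes H2-Aa and H2-Ab1. H2-Aa was in 17 of 67 Cd8 cells (257 CPM) and in 0 of 47 Cd4 cells, which allows a share of cells with a UMI of up to 6.38% (3 of 47). As profiles these were 12 of 48 and 0 of 40. Of these 17 cells 12 had a TRB contig and 11 a Cd3e UMI. Among all 67 cycling Cd8 cells 61 had a TRB contig and 61 a Cd3e UMI. The median depth of the 17 was 3883 UMIs, against 10937 in all cycling Cd8 cells. Their median was 3 H2-Aa UMIs and the highest 69. Whether all 17 are T cells was not tested. In the rest, H2-Aa was seen in 9.37% of Cd8 cells and 8.15% of Cd4 cells.

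Every hashtag contained cycling cells. Their share was 1.74% in Hashtag1 (20 of 1148), 2.23% in Hashtag2 (16 of 718), 1.72% in Hashtag3 (16 of 932) and 1.08% in Hashtag4 (10 of 925). It was 2.96% in Hashtag5 (34 of 1148), 2.00% in Hashtag6 (17 of 852), 2.42% in Hashtag7 (45 of 1858) and 1.43% in Hashtag8 (22 of 1539). The exact intervals of Hashtag5 (2.06% to 4.11%) and Hashtag4 (0.520% to 1.98%) did not overlap. Counted as profiles the shares were 2.34% (1.52% to 3.44%) and 1.18% (0.567% to 2.16%), and these intervals overlapped. With the rule applied after thinning they were 1.95% (1.04% to 3.32%) and 0.859% (0.280% to 1.99%), again with overlap, and Hashtag7 was highest at 2.30%. Neighbours in the order of shares lay within each other's intervals throughout.

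**Figure D4:**
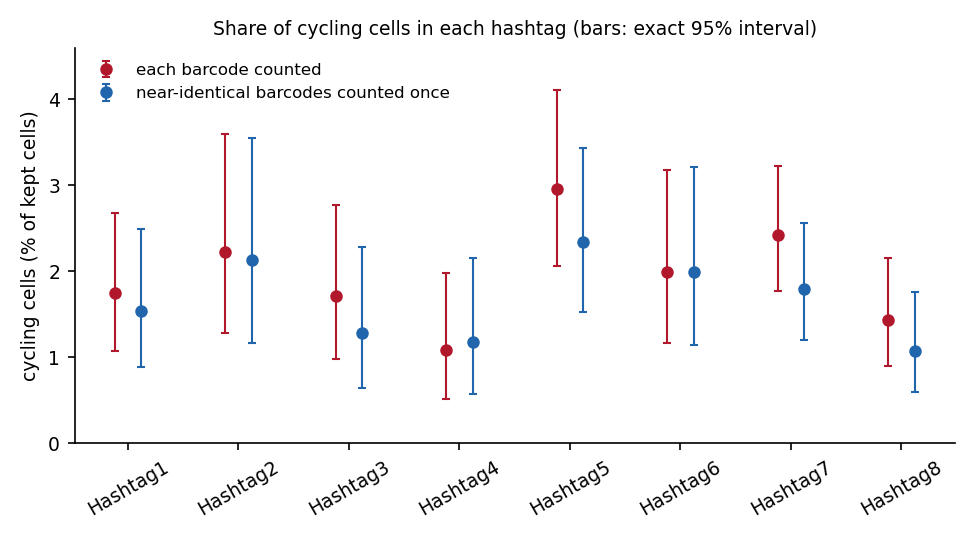
Share of cycling cells among kept cells (y axis, percent) in each of the 8 hashtags, with each barcode counted (red) and near-identical barcodes counted once (blue); bars are exact 95% intervals. Hashtag5 is highest both ways (2.96% and 2.34%), while the lowest is Hashtag4 by barcode (1.08%) and Hashtag8 by profile (1.07%).

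A paired receptor, with a productive alpha and beta chain, was known for 141 cycling cells and 5306 of the rest. Counted as barcodes, 57 of 141 cycling cells (40.4%, 32.3% to 49.0%) belonged to a clonotype with at least 2 cells in the same hashtag, against 1247 of 5306 (23.5%) in the rest, a difference of 16.9 percentage points (9.10 to 25.2, Newcombe). That difference was 34.8 points among cells of at most 12500 UMIs and 10.3 points (2.56 to 19.0) without clonotype1. Counted as profiles, 18 of 104 (17.3%, 10.6% to 26.0%) did, against 869 of 4789 (18.1%), a difference of -0.84 points (-7.01 to 7.63). The excess of expanded clonotypes in barcodes was not seen once barcodes within counting noise were counted once. Only barcodes of the same TRB CDR3 could be joined, so this count can only lower expanded shares. Separate cells of a clone with like RNA would be joined as well, so the 2 counts do not decide whether there is an excess. By clone size of 1, 2, 3 to 5, and 6 or more, cycling shares were 2.03%, 2.33%, 4.83% and 6.30% in barcodes, and 2.15%, 1.67%, 1.33% and 3.15% in profiles. In profiles, 11 of 36 cycling Cd4 cells (30.6%, 16.3% to 48.1%) were expanded, against 20.3% of the rest, and 4 of 38 Cd8 cells (10.5%, 2.94% to 24.8%), against 18.7%.

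**Figure D5:**
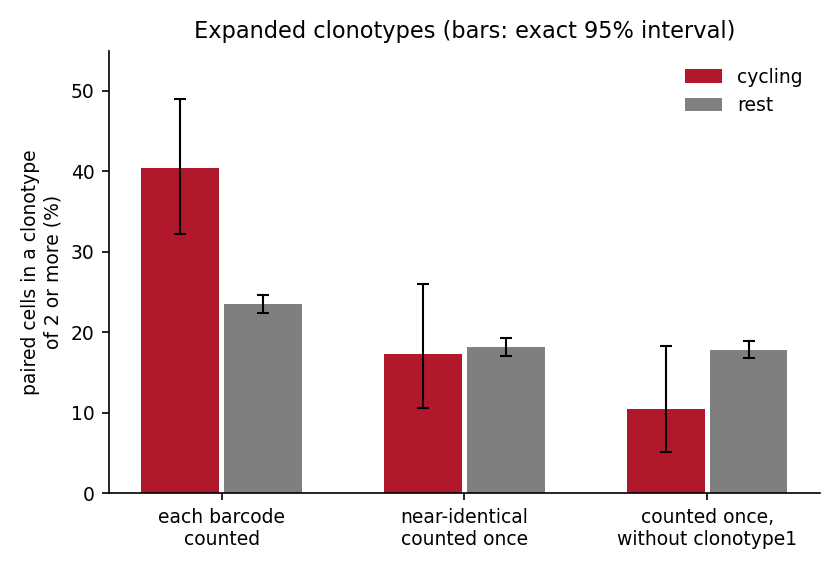
Share of cells with a paired receptor that belong to a clonotype of 2 or more in their hashtag (y axis, percent), cycling (red) and rest (grey), with exact 95% intervals. The bars stand at 40.4% and 23.5% with each barcode counted, 17.3% and 18.1% with near-identical barcodes counted once, and 10.4% and 17.9% when clonotype1 is also left out.

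The cycling cells with a paired receptor spanned 105 clonotypes, 12 of which had at least 2 cycling barcodes. Of these, 9 had them within 1 hashtag, and clonotype1 alone had at least 2 cycling profiles there. In 4 clonotypes the cycling barcodes lay in more than 1 hashtag, and in each of the 4 they formed 1 profile. The junctions of clonotype1 and of clonotype34, the largest set of cycling barcodes in 1 profile, are shown as clone identities. They are written 5′ to 3′ from the codon of the conserved cysteine to that of the J region phenylalanine, with capitals for bases that match neither the V nor the J gene of the GRCm38 annotation. Clonotype1 joined TRAV7D-2 (chr14:52683964-52684472) to TRAJ37, and TRBV23 (chr6:41216073-41216526) to TRBJ2-3, all on the plus strand. Clonotype34 joined TRAV3-3 (chr14:53665929-53666506) to TRAJ12, and TRBV13-3 (chr6:41130147-41130585) to TRBJ1-4.
clonotype1 TRA: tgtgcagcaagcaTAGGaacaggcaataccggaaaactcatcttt
clonotype1 TRB: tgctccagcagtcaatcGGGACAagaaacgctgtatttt
clonotype34 TRA: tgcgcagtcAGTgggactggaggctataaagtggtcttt
clonotype34 TRB: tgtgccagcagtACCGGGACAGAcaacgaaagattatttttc

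Clonotype1 stood out among them. It had 46 barcodes, all in Hashtag7, and 15 were cycling (32.6%, 19.5% to 48.0%), 8.33% of all cycling cells. As profiles, 7 of 25 held a cycling barcode of the clone (28%, 12.1% to 49.4%), and 8 of 25 did (32%, 14.9% to 53.5%) when 1 cycling barcode of the same profile without an alpha chain was counted. Other Hashtag7 cells with a paired receptor were cycling in 16 of 1082 cases (1.48%, 0.848% to 2.39%). The 21 other clonotypes of at least 6 cells in that hashtag gave 2 of 227 (0.881%, 0.107% to 3.15%). Of its cycling cells, 12 were Cd4 cells and 3 had no lineage UMI, and none had a Cd8a or Foxp3 UMI. The clone was picked here for its number of cycling cells, so these shares are a description.

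Genes of the effector list stood at different levels in the clone. Gzmk, granzyme K, had 2549 CPM in the 15 cycling cells and 2310 CPM in the 31 others of the clone, and Nkg7 2312 and 2638 CPM. Gzmb had 349 and 134 CPM, and Cxcr3, a receptor for interferon-induced chemokines, 370 and 432 CPM. Ccl5 had 5313 CPM in the cycling cells and 18223 CPM in the others, and Il7r 10.3 and 82.0 CPM. Other cycling Hashtag7 cells had 1439 CPM of Gzmk and 3951 CPM of Ccl5, and Hashtag7 cells in the rest outside the clone 840 and 12257 CPM. Of those 30 other cycling cells, 8 had a UMI of the clone's V gene Trbv23 and 2 its TRB junction, so some may belong to it. The 22 cells without Trbv23 had 1374 CPM of Gzmk and 3553 CPM of Ccl5. Other genes of the list were not high in the clone. Ctsw had 71.9 CPM in its cycling cells and 127 CPM in its others, against 361 CPM in the rest of Hashtag7 outside it, and Klrd1 10.3 and 82.0 CPM, against 119 CPM. Ccl4 had 10.3 and 44.7 CPM, against 223 CPM. Prf1 (perforin) had 92.5 and 224 CPM, against 92.2 CPM, and Ifng was at 0 in the cycling cells.

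The other 8 clonotypes with at least 2 cycling barcodes in 1 hashtag each came down to 1 profile. Clonotype34 had 7 of 7 barcodes cycling in Hashtag8, all Cd8 cells with 5065 to 11290 UMIs, and a median pair difference of 1.02 times counting noise over 213 genes. It had 20.7 CPM of Ccl5, 475 CPM of Tcf7 and no Gzmk UMI, so its RNA differed from that of clonotype1, and its barcodes held 13 to 205 Hashtag8 UMIs. Clonotype146 (Hashtag3) and clonotype190 (Hashtag5) had 4 of 4 barcodes cycling. Clonotype78 (2 of 4) and clonotype408 (2 of 2), both of Hashtag5, carried the same TRB junction. Clonotype169 (2 of 2, Hashtag5) had 2 TRB junctions and 66 to 76 Hashtag1 UMIs beside 303 to 324 Hashtag5 UMIs. A further cycling barcode of it, in the same profile, was placed in Hashtag1, with 581 Hashtag1 and 141 Hashtag5 UMIs. Clonotype568 (Hashtag7) had 2 of 2. In all, 18 clonotypes with a cycling cell also had a cell in the same hashtag that was not called cycling.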

How the data were processed

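Droplet 5′ RNA and T cell receptor libraries were made from the pooled lymph node T cells, per the labels' protocols. The deposited gene matrix holds counts, as UMIs per gene and barcode written by the authors with Cell Ranger 3.1.0, and hashtag UMIs. The deposited receptor tables hold counts of UMIs per contig. Builds mm10 and GRCm38 are named in the submitters' processing notes. Hashtag ages were not used here. No per-sample column was left unmapped (0).

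Cells were filtered and classed as the report gives. UMIs were summed over cells to CPM, and a gene needed at least 20 UMIs over both sets. Log2 ratios carry exact conditional binomial 95% intervals, with a floor of 3 UMIs at 0, and shares carry Clopper-Pearson intervals. PCR and cell capture are not covered. The scripts were tested on simulated data. Scrublet (Scanpy 1.11.5, expected rate 8%) marked 0 of 10192 cells and so did not work; no doublets were removed. Profiles joined barcodes of the same TRB CDR3 that differed, over at least 30 genes, by no more than counting noise plus 2 SD, by average linkage. The 25 cycling barcodes without TRB could not be compared. SciPy 1.17.1 gave the intervals, pandas 2.3.3 and NumPy 2.4.6 under Python 3.11.15 handled the tables, and Matplotlib 3.10.9 drew the figures.

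The members and the 31 gene lists were chosen with earlier results of these data known. Named genes are the markers, the 6 most abundant of each list, and outside the lists the largest ratios with at least 50 CPM and 1 direction in every hashtag with at least 20 cycling cells. Within cycling cells the 6 highest and 6 lowest ratios between classes were named, and clonotypes with at least 2 cycling cells in 1 hashtag. Others were chosen after their values were seen, and a few genes and 1 clonotype are not reported here. Alternatives changed the marker number, filters, depth, weights and hashtags. Promoter sequences are RefSeq's, and V and J genes those of GENCODE on GRCm38.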

Additional observations from a re-analysis of the deposited data

Results flagged for a closer look

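In cycling cells, Ccl5 reached 4403 CPM in Hashtag7, with a lowest and median hashtag of 119 and 907 CPM, and Gzmk 1808 CPM, with 12.4 and 107 CPM. Each of these Hashtag7 values lay far from the other 7 hashtags by Dixon's criterion. Hashtag7 was also the highest hashtag in the rest, with 12402 CPM of Ccl5 (median 3335) and 876 CPM of Gzmk (median 89.2). Of 21 sets of 8 values examined, these 2 were so far apart, and chance gives about 1 in 20. Clonotype1 lies in that hashtag, and its 15 cycling cells had 5313 CPM of Ccl5 and 2549 CPM of Gzmk, while the 30 other cycling Hashtag7 cells had 3951 and 1439 CPM. Of these 30, 8 had a Trbv23 UMI, the V gene of the clone, and the 22 without it had 3553 and 1374 CPM.

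Cells with at least 3 of the 5 markers were also found outside the kept set. A first group of 54 barcodes without Cd79a failed the hashtag rule, 2.46% of such barcodes, with a median of 5046.5 UMIs. Of the 42 that had a TRB contig, 11 (26.2%) had at least 2, against 11.0% of TRB-bearing cycling cells. A second group of 33 barcodes had a Cd79a UMI, 3.08% of kept Cd79a barcodes, with a median of 15863 UMIs, and 14 of them had a TRB contig.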

How the results depend on the processing

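Of 28 alternatives tried, some touch single results only; counting near-identical barcodes once, keeping only TRB-bearing cells, leaving out clonotype1, thinning before the rule and weighting cells equally were chosen after seeing the data. The cycling share was 2.83% with at least 2 markers, 1.38% with 4, 1.25% under the authors' limit of 12500 UMIs, 1.64% with near-identical barcodes counted once, 2.32% among TRB-bearing cells and 1.43% with the rule after thinning. Thinned after choosing, Cd8 cells were 45.5% and Cd4 cells 16.2% of cycling cells; with the rule after thinning Cd4 cells were 17.7% and Foxp3 cells 1.27%, and under the UMI limit Foxp3 cells were 3.57%. Genes at least 2-fold higher numbered 1753 thinned, 2270 under the UMI limit, 6134 without a minimum count and 2923 with the rule after thinning, where lower genes numbered 1165. The expanded difference was 34.8 points under the UMI limit and -0.84 with near-identical barcodes counted once, and 2.38, 0.07 and 0.43 when these were joined within 1, 3 and 4 SD.

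The naive list's summed log2 ratio was -0.71 with at least 4 markers, -0.77 with Cd79a cells, -0.61 without cells with 2 or more TRB, -0.62 thinned, -0.71 in TRB-bearing cells, -0.49 with the rule after thinning and -0.56 with equal weights. In the same order and settings the effector list gave -0.85 with Cd79a cells, -0.80, -0.53, -0.83, -0.51 and -0.48, and it was -0.78 without the hashtag rule, -0.72 with the rest weighted to the cycling makeup, -0.22 under the UMI limit and -0.88 without clonotype1. Both lists stayed below 0 in every setting. Leaving out 1 hashtag gave 1.83% to 2.08% for the share, 34.4% to 40.7% Cd8, 21.5% to 28.8% Cd4, 7.36% to 11.1% Foxp3, 1000 to 1106 higher and 1858 to 2036 lower genes, -0.73 to -0.64 and -0.80 to -0.66 for the lists, and 14.4 to 18.3 points expanded.

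Of 2648 values of 111 named genes under these settings, 8 that had been past 2-fold turned direction. Under the UMI limit these were Hist3h2a (0.24), Dapl1 (-0.14), Cd74 (0.13) and H2-Aa (0.094), with the rule after thinning Cd74 (0.31) and H2-Aa (0.26), without Hashtag3 Cdkn1c (-0.091, and up to 1.16 without Hashtag6) and in TRB-bearing cells Ifitm3 (0.079). The cause was not tested. Counted once per profile, 111 of 111 kept their direction and 95 of 96 stayed past 2-fold. Genes with no UMI in cycling cells gave no value. Scrublet marked 0 of 10192 cells, so its setting removed only cells with 2 or more TRB. Depth limits the Foxp3 and mixed classes most. No paired analysis was possible because the results come from no test; each hashtag holds both cycling cells and the rest, and the number of hashtags higher or lower is given instead.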

Other observations

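Gzma, granzyme A, was found in 12 of 47 cycling Cd4 cells (25.5%, 13.9% to 40.3%) and 5 of 67 cycling Cd8 cells (7.46%, 2.47% to 16.6%), with overlapping intervals. As profiles these were 7 of 40 (17.5%, 7.34% to 32.8%) and 5 of 48 (10.4%, 3.47% to 22.7%). Of the 12 Cd4 cells 10 were of clonotype1, which held 36 of their 40 Gzma UMIs. In the rest it was found in 0.613% of Cd4 cells (0.294% to 1.12%) and 1.57% of Cd8 cells (1.18% to 2.05%), and in B cells of the library in 0.668% (0.217% to 1.55%). The median depth was 9192 and 10937 UMIs in cycling Cd4 and Cd8 cells, against 3121 and 3904 UMIs in Cd4 and Cd8 cells of the rest. The difference between classes was not tested.

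Cells outside the lineage classes were not alike in cycling cells. The 30 cycling cells without Cd4, Cd8 or Foxp3 UMIs had the largest class medians of mitosis genes, 3.17% of UMIs, and of histone genes, 1.64%. Foxp3 cells had the smallest histone median, 0.215%, beside the largest S phase median, 0.930%. Among all kept cells those without lineage UMIs were the shallowest class, with a median of 1372.5 UMIs, against 3968 in Cd8 cells. A shallow cell passes the marker rule only if late cycle genes take a large share of its UMIs. These medians are therefore not read as a trait of the class.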
